A study of Mus musculus with 14 samples.

Results

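Glycolysis splits glucose into pyruvate, and muscle and brain build many of its enzymes from different genes: most steps have a family of isoenzymes whose members differ in tissue, kinetics and regulation. Glycogen is the stored, branched form of glucose. It is built by glycogen synthase and the branching enzyme and taken apart by glycogen phosphorylase, which phosphorylase kinase switches on when calcium or adrenergic signals arrive. In muscle this store feeds contraction, and in brain most of it lies in astrocytes.

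The genes described here are 34 members of these pathways, from the glucose transporters to lactate dehydrogenase and the lactate exporters, chosen by name. Of the 34, 30 had at least 1 probe set annotated to their symbol alone, 64 probe sets in all, out of 18193 genes and 34945 such probe sets on the array. Gapdh, the glyceraldehyde-3-phosphate dehydrogenase gene, was read only by 3 of the array's control probe sets, and Gpi1, Eno1 and Pfkfb1 were not analysed here. A gene with several probe sets was represented by the one with the highest mean over all arrays. All levels are log2(intensity + 16), on which a level of 4 stands for no signal, and levels are compared between arrays within a probe set, never between genes.

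The 14 arrays held brain, labelled as whole brain, of 3 mice lacking the Prader-Willi imprinting center, labelled PWS-IC del, and of 4 wild-type mice, and vastus lateralis, a thigh muscle, of 3 PWS-IC del and 4 wild-type mice. Every animal came from a cross of FVB with B6, in the first hybrid generation (F1), and the wild-type mice were littermates matched for age. The imprinting center switches on a paternally expressed gene cluster that is lost in Prader-Willi syndrome. The age, the sex, the parent that passed on the deletion and whether a brain and a muscle came from the same mouse are not stated in the labels, which call the arrays biological replicas. Both tissues are mixtures of cells, so fewer cells of a type and less RNA per cell cannot be told apart.

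The genotype labels were checked on genes of the silenced cluster. Ndn was at 7.70 to 8.71 in PWS-IC del brain and at 12.04 to 12.79 in wild-type brain, and at 7.47 to 7.73 in PWS-IC del muscle and at 8.69 to 8.99 in wild-type muscle. Snrpn and Magel2 were also lower without overlap in PWS-IC del brain. In muscle Snrpn was at 6.37 to 6.97 in PWS-IC del, against 7.07 to 7.16 in wild type. Magel2 overlapped in muscle, at 6.23 to 6.55 in PWS-IC del and 6.23 to 6.53 in wild type. Median intensity was 142 to 170 in brain arrays and 88.7 to 96.4 in muscle arrays. Marker genes of other tissues varied between arrays. The summed intensity of 18 skeletal muscle genes was 5345, 9735 and 6845 in the 3 PWS-IC del brains, against 15654, 6275, 13033 and 6808 in the 4 wild-type brains. These sums are 2.79% to 8.18% of the wild-type muscle mean. The mean level of the 18 genes was 9.06 and 8.83 in wild-type brains 1 and 3, and lower in wild-type brains 2 and 4. It was 7.03, 7.08 and 7.18 in the PWS-IC del brains, so the sum of 9735 in PWS-IC del brain 2 came without a raised mean level. A few bright genes can carry a sum, so the sums alone do not show muscle tissue in a brain array. The summed intensity of 10 neuron genes was 418, 465 and 696 in PWS-IC del muscle, against 379, 1966, 535 and 936 in wild-type muscle. Of 8 cerebellar genes, the sum was 134904 in PWS-IC del brain 2 and 7609 to 18644 in the other 6 brains, and the sum of 8 striatal genes ran from 7138 to 27130 over the 7 brains.

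The stretch of 250 bases upstream of the annotated start is shown for the brain and muscle genes of enolase and phosphoglycerate mutase, since in both steps the pair ran in opposite directions between the tissues. The sequences are from RefSeq, assembly GRCm38.p6, read 5′ to 3′ on the strand of the gene. Capitals mark matches to ACGTG, the core of the hypoxia response element, which is also part of the E-box CACGTG, or to CAGCTG, an E-box form bound by myogenic factors. Eno2 lies at chr6:124769674-124769923 on the minus strand, Eno3 at chr11:70656926-70657175 on the plus strand, Pgam1 at chr19:41911621-41911870 on the plus strand and Pgam2 at chr11:5803797-5804046 on the minus strand.
Eno2: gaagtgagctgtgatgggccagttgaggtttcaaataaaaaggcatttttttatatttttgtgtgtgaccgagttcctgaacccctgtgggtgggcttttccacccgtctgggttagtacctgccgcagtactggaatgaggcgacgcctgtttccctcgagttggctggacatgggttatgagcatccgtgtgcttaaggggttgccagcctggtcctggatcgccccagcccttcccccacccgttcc
Eno3: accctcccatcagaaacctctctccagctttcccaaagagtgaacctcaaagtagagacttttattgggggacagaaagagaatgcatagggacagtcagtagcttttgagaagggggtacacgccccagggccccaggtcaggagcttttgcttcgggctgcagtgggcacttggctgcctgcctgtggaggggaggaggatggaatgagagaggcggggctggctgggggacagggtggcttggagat
Pgam1: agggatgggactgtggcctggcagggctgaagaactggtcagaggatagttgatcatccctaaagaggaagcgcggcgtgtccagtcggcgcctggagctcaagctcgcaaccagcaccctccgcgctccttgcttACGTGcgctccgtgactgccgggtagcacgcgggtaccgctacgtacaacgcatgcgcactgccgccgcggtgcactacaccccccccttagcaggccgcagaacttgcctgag
Pgam2: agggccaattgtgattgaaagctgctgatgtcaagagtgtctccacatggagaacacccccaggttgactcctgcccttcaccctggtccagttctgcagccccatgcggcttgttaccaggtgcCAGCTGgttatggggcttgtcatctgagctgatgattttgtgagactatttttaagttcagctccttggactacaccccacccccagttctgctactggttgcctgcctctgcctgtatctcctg
The Pgam2 window held CAGCTG with its first base 125 before the start, the Pgam1 window held ACGTG with its first base 114 before the start, and the enolase windows held none of the motifs searched.

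Upstream windows were found for 28 of the 30 measured members. CAGCTG, searched on both strands, was in 0 of 9 windows of members higher in brain and in 5 of 19 windows of members higher in muscle (Pgam2, Pkm, Pygm, Phka1 and Gys1), against 12.8% of 27025 windows of all genes. ACGTG was in 3 of 9 windows of members higher in brain (Pgam1, Pygb and Pfkfb2) and in 9 of 19 of members higher in muscle, among them Hk2, Ldha, Pgk1 and Slc16a3, against 16.6% of all windows. GGGCGG, the GC box, was in 3 of 9 and 12 of 19 windows in the same order, against 32.9% of all. TATAAA on the gene's strand and TCAAGGTCA, the estrogen-related receptor element, on both strands were in none of these 28 windows, against 8.12% and 0.366% of all. A match is a run of letters and not a measured binding site.

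The first question was which gene of each step was higher in which of the 2 tissues. In wild-type mice all 30 members differed between brain and muscle, 10 higher and 20 lower in brain, where 81.6% of all 14951 genes tested differed, 59.2% higher and 22.4% lower (limma, adjusted p under 0.05). Their median absolute difference was 3.40 log2 units, against 0.87 over all genes tested, and 25 of the 30 were past 1 log2 unit. Of these, 10 were higher and 15 lower in brain, against 34.5% and 10.1% of all genes. The brain and muscle arrays did not overlap in 29 of the 30, against 77.2% of all genes, and Slc16a1 was the exception. Of 9 steps with a brain and a muscle gene, 8 had the brain gene higher in brain and the muscle gene higher in muscle, and in 1, the monocarboxylate transporters, both were lower in brain. The direction of a small difference depends on scale: the median of all genes was 0.52 as deposited, -0.17 after quantile normalization and -0.15 after median centring. All 30 members kept their direction under both.

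**Figure D1:**
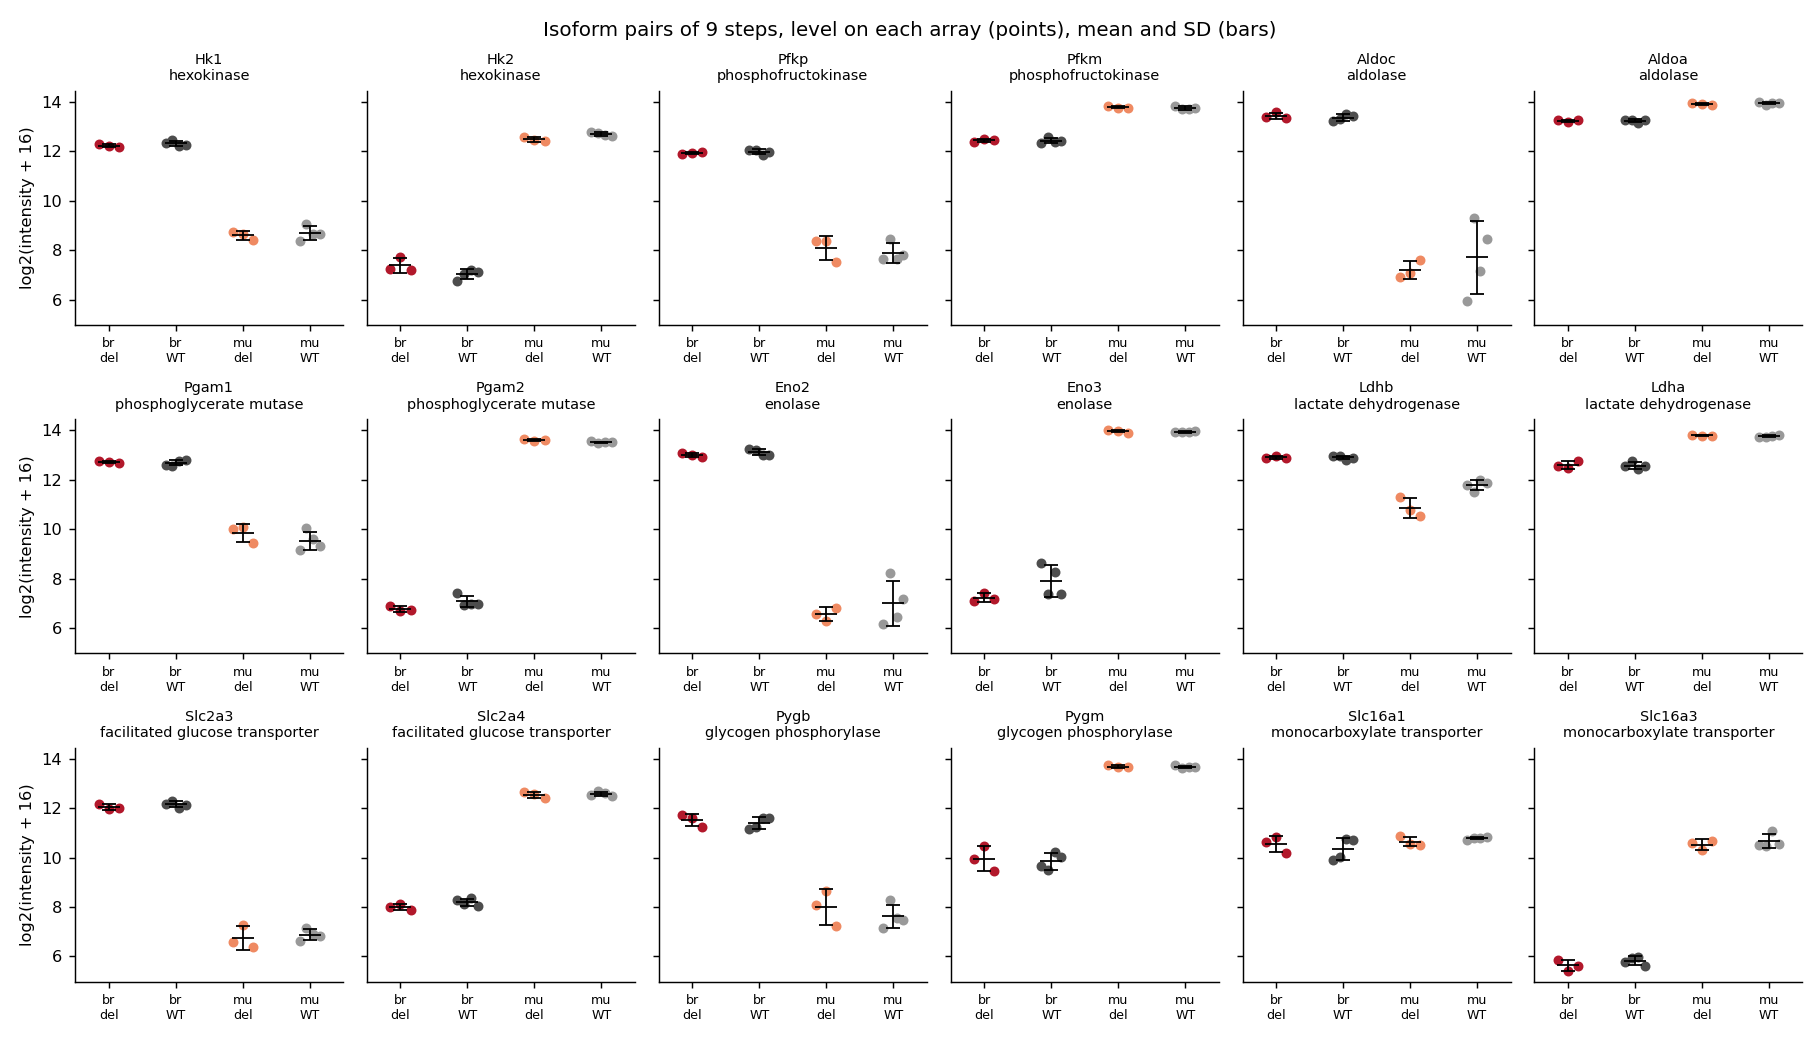
Levels of the brain-side and muscle-side gene of 9 steps on each array, as log2(intensity + 16), with points for arrays and bars for the mean and SD of a group (br, brain; mu, muscle; del, PWS-IC del; WT, wild type). Eno2 and Eno3 sit at opposite ends in the 2 tissues, while Slc16a1 is between 9.91 and 10.86 in every group, and the genotypes do not overlap in Ldhb, Hk2 and Pgam2 in muscle and in Pgam2 in brain.

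**Figure D2:**
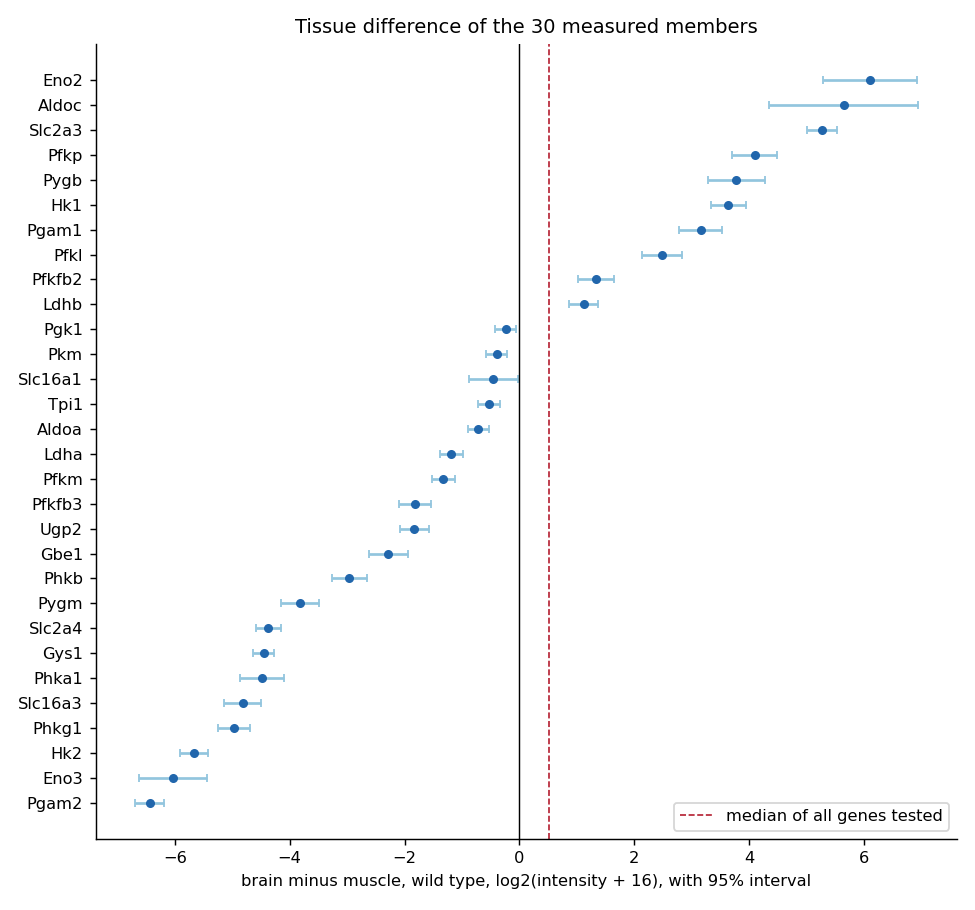
Brain minus muscle difference of the 30 measured members in wild-type mice, as points with 95% intervals on the log2(intensity + 16) scale, with the median of all genes tested (0.52) as a dashed line. The members run from 6.11 for Eno2 to -6.44 for Pgam2.

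Enolase makes phosphoenolpyruvate, and its 2 measured genes were at opposite ends of the tissue differences. Eno2, the neuronal enolase, was at 13.23, 13.19, 12.99 and 13.00 in wild-type brain and at 6.15, 8.21, 6.45 and 7.17 in wild-type muscle. Eno3, the muscle enolase, was at 8.62, 7.36, 8.26 and 7.36 in wild-type brain and at 13.94, 13.91, 13.91 and 13.97 in wild-type muscle. The tissues were far apart in both genes, and the differences were 6.11 ± 0.37 (SE) for Eno2 and -6.03 ± 0.26 for Eno3, or 68.9-fold higher and 65.4-fold lower in brain (limma, adjusted p 9.54e-08 and 8.02e-09). The spread lay in the tissue where the gene was low. Brains 1 and 3 of the wild type, which held the largest muscle marker sums, were the brains with the most Eno3, and wild-type muscle 2, with the largest neuron marker sum, was the muscle with the most Eno2. Without those 2 brains the Eno3 difference was -6.57, and without that muscle the Eno2 difference was 6.51. What part these markers have in the values was not tested.

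Phosphoglycerate mutase, which moves the phosphate group ahead of enolase, was split in the same way. Pgam2, the muscle form, was at 7.42, 6.92, 6.97 and 6.99 in wild-type brain and at 13.54, 13.49, 13.52 and 13.50 in wild-type muscle, 86.9-fold lower in brain and the widest gap of all members (-6.44 ± 0.12, limma, adjusted p 1.16e-10). Pgam1, the form of brain and most other tissues, was at 12.61, 12.57, 12.77 and 12.80 in wild-type brain and at 9.17, 10.02, 9.59 and 9.33 in wild-type muscle, 8.92-fold higher in brain (3.16 ± 0.17). In neither gene did the tissues overlap.

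Hexokinase traps glucose in the cell by adding a phosphate. Hk2, the insulin-responsive form of muscle and fat, was at 6.77, 7.02, 7.20 and 7.13 in wild-type brain and at 12.77, 12.74, 12.65 and 12.61 in wild-type muscle (-5.66 ± 0.11, or 50.7-fold lower in brain). Hk1, the form of brain and red cells, averaged 12.32 ± 0.10 in wild-type brain and 8.68 ± 0.28 in wild-type muscle (SD, n = 4 each), 12.5-fold higher in brain. Glucose entry ran in parallel: Slc2a3, which encodes the neuronal transporter GLUT3, was higher in brain (5.27 ± 0.12), and Slc2a4, which encodes the insulin-regulated GLUT4, was lower (-4.37 ± 0.10).

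Phosphofructokinase commits sugar to glycolysis, and its 3 subunit genes did not split evenly. Pfkp, the platelet subunit that is also abundant in brain, was 17.1-fold higher in brain (4.10 ± 0.17), and Pfkl, the liver subunit, was 5.59-fold higher in brain (2.48 ± 0.15). Pfkm, the muscle subunit, averaged 12.43 ± 0.11 in wild-type brain and 13.75 ± 0.07 in wild-type muscle (SD, n = 4 each), 2.50-fold lower in brain (-1.32 ± 0.09). Of the enzymes that make and break fructose 2,6-bisphosphate, the activator of phosphofructokinase, Pfkfb2 was higher in brain (1.34 ± 0.14) and Pfkfb3 lower (-1.82 ± 0.13). A weak second probe set of Pfkl and one of Pfkfb2 had the opposite sign (-0.36 and -0.38); the other 32 of 34 additional probe sets of members had the sign of the one chosen.

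Aldolase cuts the phosphorylated sugar. Aldoc, which marks astrocytes and some Purkinje cells, was at 13.21, 13.29, 13.49 and 13.44 in wild-type brain and at 5.95, 9.30, 7.16 and 8.43 in wild-type muscle (5.65 ± 0.58, or 50.2-fold higher in brain). The 4 muscle values have the order of the neuron marker sums given above, and so do the 3 PWS-IC del muscles at 6.90, 7.09 and 7.58. The summed intensity of 6 astrocyte genes was 3170, 3313 and 2427 in PWS-IC del muscle, against 2019, 3222, 2069 and 2342 in wild-type muscle, with the order of Aldoc in wild type but not in PWS-IC del. The part of these markers was not tested. Snap25, a synaptic gene, was at 4.00 in wild-type muscle 1 and at 9.23 in wild-type muscle 2. Without wild-type muscle 2 the Aldoc difference was 6.18. Aldoa, the muscle aldolase, was 1.64-fold lower in brain (-0.71 ± 0.08).

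The steps with a single widespread gene had small differences on the deposited scale. Tpi1 (triosephosphate isomerase) was -0.53 ± 0.09, Pkm (pyruvate kinase of muscle and brain) -0.40 ± 0.08 and Pgk1 (phosphoglycerate kinase) -0.24 ± 0.08, all lower in brain (limma, adjusted p 1.90e-04, 0.00104 and 0.0189). They were -0.49, -0.40 and -0.24 after quantile normalization and -1.21, -1.07 and -0.92 after median centring, where Ldhb, described next, was at 0.44. The 3 Gapdh control probe sets, read from the 3′ end, the middle and the 5′ end of the transcript, gave differences of -0.17, -0.20 and -0.14, each with an exact 2-sided permutation p of 0.0286, the smallest that 4 arrays against 4 allow. Pgk1 was not called with the replicate number as a block, without wild-type muscle 4 or without wild-type brains 1 and 3 (limma, adjusted p 0.0542, 0.0601 and 0.0811).

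Lactate dehydrogenase interconverts pyruvate and lactate, with Ldha dominant in fast muscle and Ldhb in heart, slow muscle and neurons. Ldhb averaged 12.90 ± 0.08 in wild-type brain and 11.78 ± 0.21 in wild-type muscle, and Ldha averaged 12.57 ± 0.13 in wild-type brain and 13.75 ± 0.05 in wild-type muscle (SD, n = 4 each). The differences of 1.12 ± 0.11 and -1.19 ± 0.09 ran in opposite directions, and the tissues did not overlap in either gene. Slc16a3, the lactate exporter MCT4 of fast muscle, averaged 5.83 ± 0.17 in wild-type brain and 10.66 ± 0.28 in wild-type muscle (SD, n = 4 each), a difference of -4.82 ± 0.15. Its brain signal was dim, and the difference ran from -5.50 after median centring to -3.98 with a pseudocount of 64. Slc16a1, the widespread carrier MCT1, was at 9.91, 10.01, 10.74 and 10.70 in wild-type brain and at 10.72, 10.81, 10.80 and 10.83 in wild-type muscle. It was the member whose tissues overlapped, and its call was the weakest (-0.45 ± 0.19, limma, adjusted p 0.0468): the 3 PWS-IC del arrays of each tissue gave -0.09 (adjusted p 0.661), and leaving out single wild-type arrays gave up to 0.129.

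Of the 8 glycogen genes among the members, 7 were lower in brain. In the breakdown arm Phkg1, the catalytic subunit of muscle phosphorylase kinase, was 31.3-fold lower in brain (-4.97 ± 0.13), Phka1, its muscle regulatory subunit, 22.3-fold (-4.48 ± 0.17), Phkb, the shared subunit, 7.79-fold (-2.96 ± 0.14) and Pygm, the muscle phosphorylase, 14.1-fold (-3.82 ± 0.15). Pygb, the brain phosphorylase, was 13.7-fold higher in brain (3.78 ± 0.22). In the synthesis arm Gys1, the muscle and brain glycogen synthase, was 21.8-fold lower in brain, Gbe1, the branching enzyme, 4.87-fold and Ugp2, which makes UDP-glucose, 3.56-fold. The 4 breakdown genes that were high in muscle varied among brains in a shared pattern of arrays. Phka1 was at 8.88, 9.25 and 8.27 in PWS-IC del brain and at 8.20, 8.23, 8.95 and 8.84 in wild-type brain. Pygm was at 9.95, 10.45 and 9.44 in PWS-IC del brain and at 9.66, 9.49, 10.21 and 10.03 in wild-type brain. In both genes PWS-IC del brain 2 was highest and wild-type brains 3 and 4 were above wild-type brains 1 and 2. The summed intensity of 6 astrocyte genes was 30148, 30090 and 24278 in PWS-IC del brain and 25671, 25913, 29453 and 28630 in wild-type brain, low in the same 3 arrays as Phka1. The first principal component of all genes, the main axis of variation among the brains, divided the arrays in the same way. It was 16.7, 29.6 and -6.77 in PWS-IC del brain and -40.2, -25.4, 10.2 and 15.9 in wild-type brain. The pattern is therefore not particular to astrocyte or glycogen genes. The part of astrocyte content in these values was not tested.

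Genes of the same pathways outside the 34 were tested too. Of 15 tested genes of glycolysis and glucose entry, 6 were higher and 6 lower in brain. Among them Slc2a1 (GLUT1, the transporter of the blood-brain barrier) was higher by 2.16 ± 0.11, while Fbp2, the muscle fructose bisphosphatase, was -4.14 ± 0.28 and Pfkfb4 -1.82 ± 0.09. Of 18 further glycogen genes, 8 were higher and 5 lower, with Pgm2l1 (glucose 1,6-bisphosphate synthase) at 2.36 ± 0.08, and with the glycogen-binding Stbd1 at -4.89 ± 0.10, the phosphatase targeting subunit Ppp1r3a at -4.23 ± 0.14 and glycogenin (Gyg) at -2.91 ± 0.12. Of 12 regulators, 4 were higher and 7 lower. The gamma subunits of AMP-activated protein kinase divided, with Prkag2 at 3.02 ± 0.11 and Prkag3 at -5.70 ± 0.09.

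The second question was whether the imprinting center deletion changed any of these levels, and in brain no member was called. The count was 0 of 29 tested, against 0.066% of 13644 genes, and at an unadjusted p under 0.05 it was 1, Pfkfb3, against 8.2% of all genes. Slc16a3 was too dim in brain to be tested. The 29 differences were 15 positive and 14 negative, with a median of 0.01, against 0.06 over all genes, and the smallest adjusted p among them was 0.556 (limma).

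**Figure D3:**
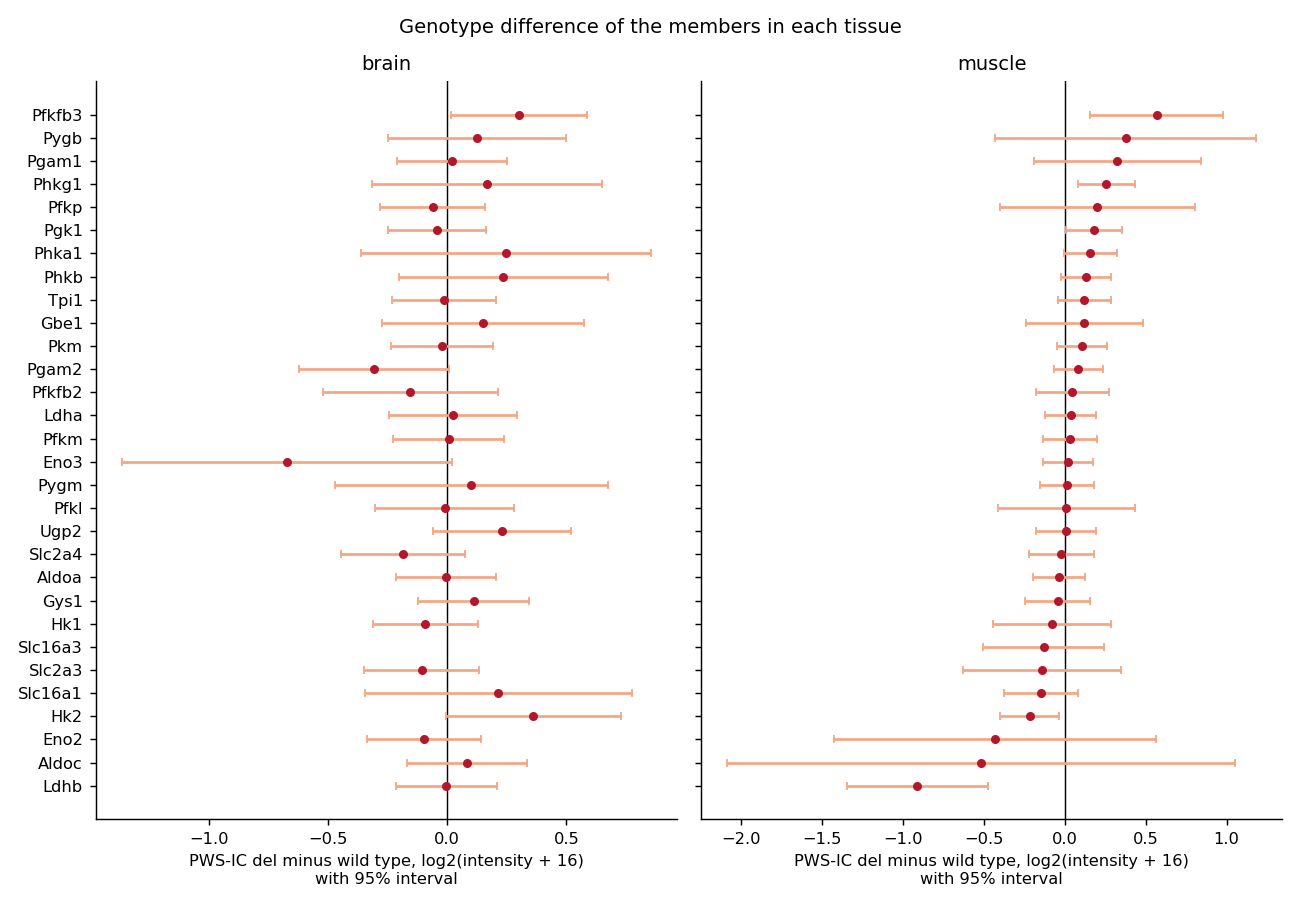
PWS-IC del minus wild-type difference of each member in brain (left) and muscle (right), as points with 95% intervals on the log2(intensity + 16) scale, ordered by the muscle difference. Slc16a3 has no brain value because it was not tested there, and Ldhb in muscle lies furthest below 0 with an interval of -1.35 to -0.48.

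The 3 brain differences with the greatest size were those of muscle isoforms, 2 lower and 1 higher in PWS-IC del. Eno3 was at 7.10, 7.42 and 7.17 in PWS-IC del brain, against 8.62, 7.36, 8.26 and 7.36 in wild-type brain (-0.67 ± 0.30, limma, adjusted p 0.556). Pgam2 was at 6.89, 6.70 and 6.72 in PWS-IC del brain, against 7.42, 6.92, 6.97 and 6.99 in wild-type brain (-0.30 ± 0.14, adjusted p 0.556). On the deposited scale Pgam2 was the 1 member whose genotypes did not overlap in brain, where 8.66% of all genes did not overlap. Hk2 ran the other way, at 7.25, 7.73 and 7.19 in PWS-IC del brain, against 6.77, 7.02, 7.20 and 7.13 in wild-type brain (0.36 ± 0.16, adjusted p 0.556). The Hk2 genotypes overlapped as deposited, and without PWS-IC del brain 2 the Hk2 difference was 0.19. After rescaling, Pgam2 overlapped and other members did not. After quantile normalization these were Hk2, Pfkfb3 and Ugp2, all 3 higher in PWS-IC del, where 7.21% of all genes did not overlap. After median centring they were Hk2 and Pfkfb3, both higher, where 9.28% of all genes did not overlap. Eno3 was highest in wild-type brains 1 and 3, the brains with the largest muscle marker sums. Pgam2 was high in wild-type brain 1 alone and at 6.97 in wild-type brain 3. In these 2 brains Ckm, the creatine kinase of muscle, was at 10.38 and 9.61, against 6.38 to 7.25 in the other 5 brains. Without those 2 brains the Eno3 difference was -0.13, the Pgam2 difference -0.19 and the Hk2 difference 0.32, and 0 members were called. The part of the muscle markers in these values was not tested.

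None of the 8 brain-side isoforms that were higher in brain than in muscle passed the genotype test in brain. Hk1 averaged 12.23 ± 0.05 in PWS-IC del brain (SD, n = 3) and 12.32 ± 0.10 in wild-type brain (SD, n = 4), with a difference of -0.09 and a 95% interval of -0.31 to 0.13. Eno2 gave -0.10 (-0.34 to 0.14), Aldoc 0.08 (-0.17 to 0.34), Slc2a3 -0.11 (-0.35 to 0.14), Pfkp -0.06 (-0.28 to 0.16), Pgam1 0.02 (-0.21 to 0.25) and Ldhb -0.0036 (-0.21 to 0.21). The ends of these 7 intervals lay between -0.35 and 0.34, and Pygb had a wider one (0.13, -0.25 to 0.50). Pfkfb3, an inducible maker of fructose 2,6-bisphosphate, was at 8.92, 8.93 and 8.78 in PWS-IC del brain, against 8.38, 8.67, 8.44 and 8.81 in wild-type brain (0.30 ± 0.13, adjusted p 0.556). All 8 glycogen genes among the members had a positive difference in brain, between 0.10 for Pygm and 0.25 for Phka1, where 61.9% of all genes were positive. The 14 further glycogen genes tested in brain were 8 positive and 6 negative. None of the 8 members passed the test. With 1 array left out at a time, the sign changed for Pygm alone, while the sizes moved. Without PWS-IC del brain 2 Pygm was -0.15, Phka1 0.02 and Phkg1 0.0042. Without wild-type brains 1 and 2 Pygm, Phka1, Phkg1 and Gbe1 were -0.17, -0.09, -0.05 and -0.12. The astrocyte sums given above, high in PWS-IC del brains 1 and 2 and low in wild-type brains 1 and 2, follow the same arrays. So does the first principal component of all genes, and the part of either was not tested.

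In muscle no member was called either, 0 of 30 against 0.117% of 13644 genes. At an unadjusted p under 0.05 there were 5 (Ldhb, Phkg1, Pfkfb3, Hk2 and Pgk1), against 11.9% of all genes, and the median difference was 0.03, against 0.02 over all genes. The genotypes did not overlap in 9 of the 30, 7 higher and 2 lower in PWS-IC del, against 12.2% of all genes, 6.31% higher and 5.86% lower. The 9 were Tpi1, Pgk1, Pgam2, Pkm, Phka1, Phkb and Phkg1 on the higher side and Ldhb and Hk2 on the lower side. After quantile normalization 10 did not overlap and after median centring 8, with Pfkfb3 added in both and with Hk2 and Pgam2 no longer among them after median centring.

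Ldhb, the lactate dehydrogenase subunit of slow fibres and heart, had the largest muscle difference. It was at 11.32, 10.77 and 10.52 in PWS-IC del muscle, against 11.79, 11.49, 11.98 and 11.87 in wild-type muscle. Every PWS-IC del array was below every wild-type array, and the difference was -0.91 ± 0.19 with a 95% interval of -1.35 to -0.48, 1.88-fold lower (limma, p 0.00119, adjusted p 0.121). The 4 Ldhb probe sets gave -0.83, -0.93, -0.91 and -0.86. Leaving out 1 array at a time moved the difference between -1.14 and -0.74 and the adjusted p between 0.0788 and 0.374, and no such fit called it. Array quality weights (-1.02, adjusted p 0.00599) and a joint fit of all 14 arrays (adjusted p 0.0234) did call it. Over all 13644 genes these fits called 1861 and 39, against 16 in the main fit. Ldha, its partner, was at 13.81, 13.78 and 13.78 in PWS-IC del muscle, against 13.73, 13.71, 13.76 and 13.82 in wild-type muscle, a difference of 0.04 with a 95% interval of -0.12 to 0.19.

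Slow-fibre markers varied among the same arrays. Their list of 10 genes includes Myh2, a myosin of fast oxidative fibres, so it does not stand for slow fibres alone. The summed intensity of the 10 was 49637, 28642 and 30554 in PWS-IC del muscle, against 49772, 25530, 60747 and 57054 in wild-type muscle. The wild-type sums had the order of Ldhb, while PWS-IC del muscles 2 and 3 had the reverse order. Wild-type muscle 2, with the smallest sum, had Ldhb at 11.49, against 10.52 to 11.32 in PWS-IC del muscle. Of the 10 genes of this list, 5 had a positive and 5 a negative difference in muscle. At an unadjusted p under 0.05 there were 3, all lower in PWS-IC del, against 11.9% of all genes. The smallest adjusted p in the list was 0.105 (limma). The genotypes did not overlap in 3, all lower, against 5.86% of all genes on that side. The 10 endothelium genes all had negative differences in muscle, with a summed intensity of 4759, 4309 and 3517 in PWS-IC del, against 5433, 6009, 5118 and 4653 in wild type. The part of fibre and vessel content in the Ldhb difference was not tested.

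**Figure D4:**
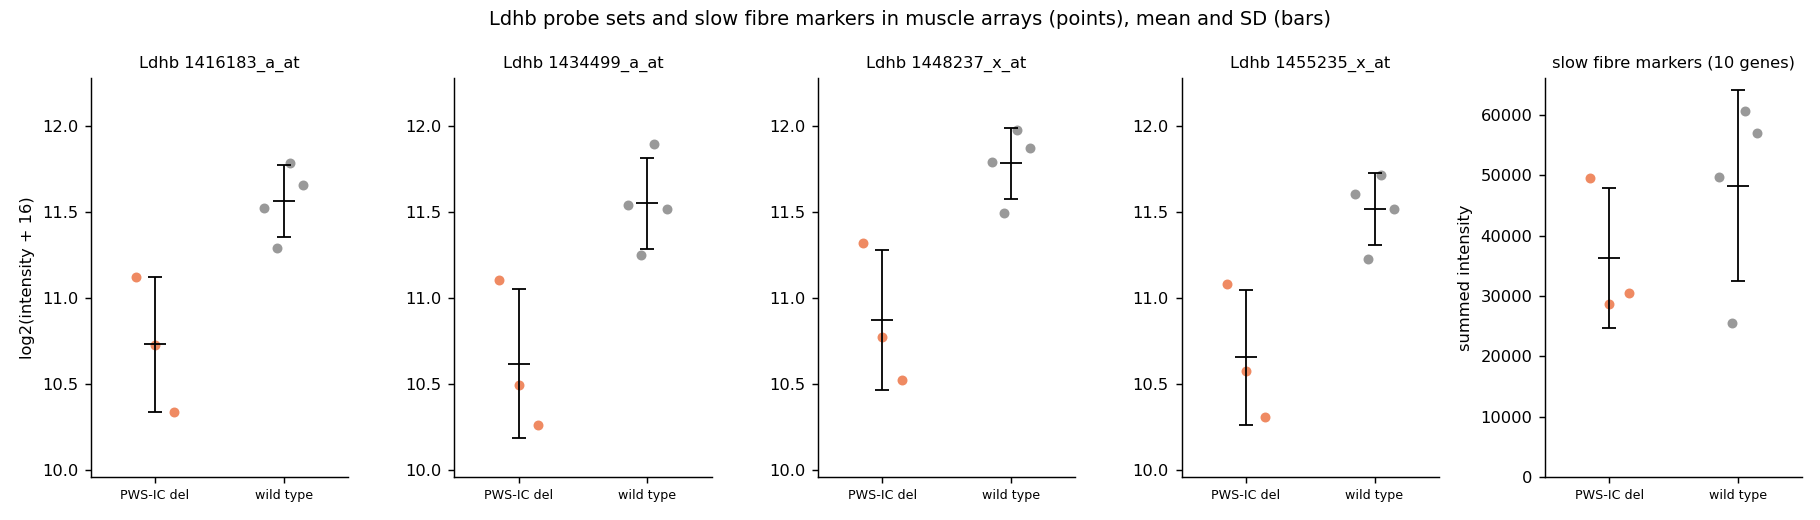
The 4 Ldhb probe sets in muscle, as log2(intensity + 16), and the summed intensity of 10 slow-fibre markers, Myh2 of fast oxidative fibres included. Points are arrays and bars the mean and SD of the group, PWS-IC del left and wild type right. The genotypes are apart in each Ldhb panel and overlap in the slow-fibre sum.

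Phosphorylase kinase activates glycogen phosphorylase. Its 3 subunit genes among the members were on the higher side in PWS-IC del muscle with no overlap, by small amounts. Of the 18 further glycogen genes tested in muscle, from a list that includes the subunit genes Phka2 and Phkg2, 0 were higher without overlap. Phkg1 was at 12.13, 12.02 and 11.99 in PWS-IC del muscle, against 11.87, 11.73, 11.83 and 11.72 in wild-type muscle (0.26 ± 0.08, limma, adjusted p 0.284). Phka1 was at 13.19 in each of the 3 PWS-IC del muscles, against 13.07, 12.94, 13.03 and 13.10 in wild-type muscle (0.16 ± 0.07, adjusted p 0.433). Phkb was at 12.64, 12.54 and 12.62 in PWS-IC del muscle, against 12.48, 12.47, 12.45 and 12.47 in wild-type muscle (0.13 ± 0.07, adjusted p 0.480). The other Phka1 probe sets gave 0.20 and 0.15 and the other Phkg1 probe set 0.25. In brain the same 3 genes gave 0.25, 0.24 and 0.17 for Phka1, Phkb and Phkg1, with genotypes that overlapped. Their substrate Pygm differed by 0.01 in muscle, with a 95% interval of -0.15 to 0.18, and the synthesis genes Gys1, Gbe1 and Ugp2 by -0.04, 0.12 and 0.01.

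**Figure D5:**
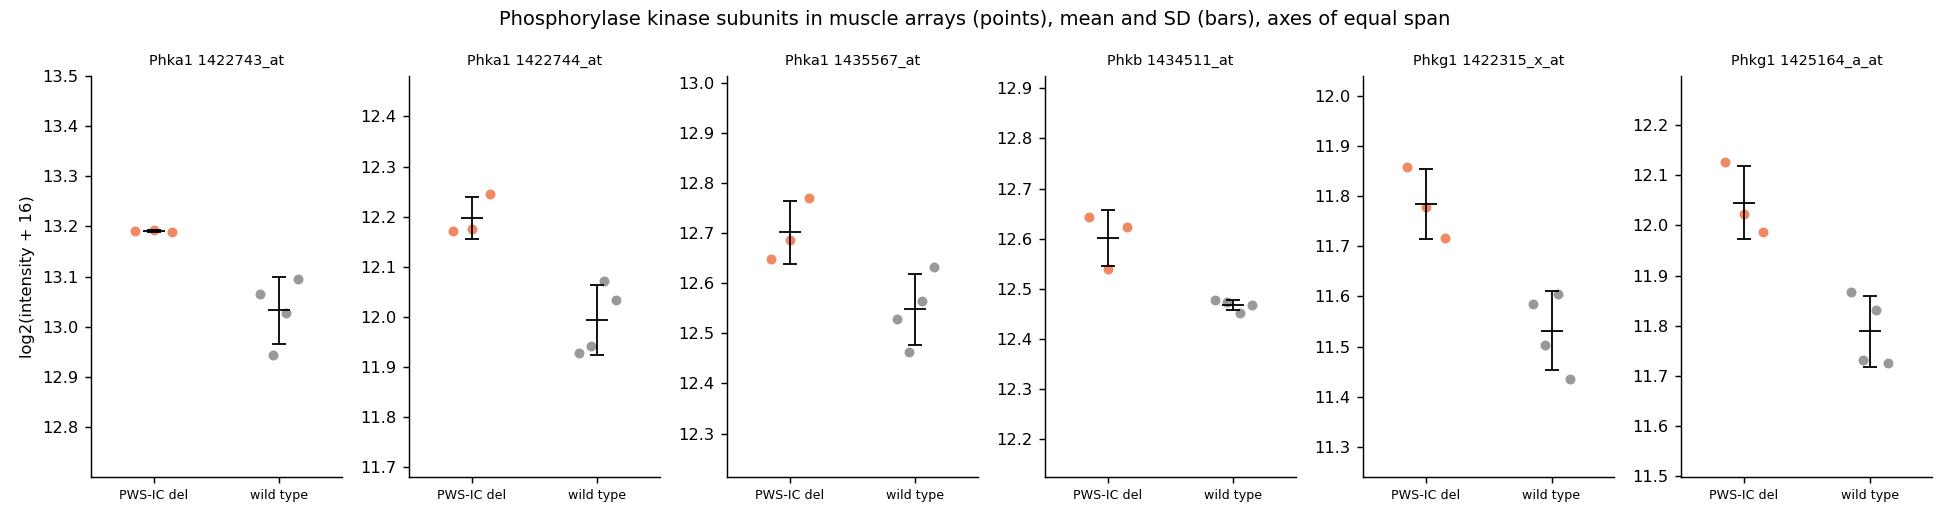
The 6 probe sets of the phosphorylase kinase subunits among the members, in muscle, as log2(intensity + 16). Points are arrays and bars the mean and SD of the group, PWS-IC del left and wild type right, with axes of equal span. The genotypes do not overlap in any panel, and the mean differences lie between 0.13 and 0.26.

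Pfkfb3 had the largest positive difference in muscle. It was at 11.32, 11.05 and 10.53 in PWS-IC del muscle, against 10.21, 10.54, 10.54 and 10.29 in wild-type muscle (0.57 ± 0.18, limma, adjusted p 0.290), and a second probe set gave 0.56. PWS-IC del muscles 1 and 2 were above all wild-type muscles and PWS-IC del muscle 3 was not. Macrophage genes had the order of Pfkfb3 in PWS-IC del muscle but not in wild-type muscle. The sum of 9 was 8466, 8012 and 5533 in PWS-IC del muscle, against 5771, 6570, 5095 and 5320 in wild-type muscle. Its part in the Pfkfb3 value was not tested. Without PWS-IC del muscle 1 the difference was 0.39. Pfkfb4, a related enzyme outside the 34, averaged 10.49 ± 0.05 in PWS-IC del muscle (SD, n = 3) and 10.18 ± 0.13 in wild-type muscle (SD, n = 4), with no overlap (0.31 ± 0.09, adjusted p 0.271).

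At glucose entry, Hk2 was at 12.58, 12.44 and 12.40 in PWS-IC del muscle, against 12.77, 12.74, 12.65 and 12.61 in wild-type muscle (-0.22 ± 0.08, limma, adjusted p 0.348), while Slc2a4 differed by -0.02 with a 95% interval of -0.22 to 0.18. Along the lower steps Pgk1 was at 13.38, 13.34 and 13.42 in PWS-IC del muscle, against 13.18, 13.21, 13.11 and 13.29 in wild-type muscle (0.18 ± 0.08, adjusted p 0.393). Tpi1, Pkm and Pgam2 followed at 0.12, 0.11 and 0.09, without overlap and without a call. Other muscle genes of the pathway had intervals around 0, with Eno3 at 0.02 (95% interval -0.14 to 0.17), Aldoa at -0.04 (-0.20 to 0.13) and Pfkm at 0.03 (-0.13 to 0.20). In muscle these genes were at percentiles 99.97, 99.96 and 99.88 of brightness, and whether such bright signals understate a difference was not tested. The Gapdh control probe sets differed by -0.03, 0.00 and 0.03 in muscle and by -0.02, -0.01 and 0.02 in brain (exact permutation p 0.314 to 0.800).

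Brain isoforms in muscle had the widest intervals. Aldoc was at 6.90, 7.09 and 7.58 in PWS-IC del muscle, against 5.95, 9.30, 7.16 and 8.43 in wild-type muscle (-0.52 ± 0.69), and Eno2 was at 6.58, 6.29 and 6.83, against 6.15, 8.21, 6.45 and 7.17 (-0.43 ± 0.43). Without wild-type muscle 2, the array with the neuron marker sum of 1966, the differences were 0.01 and -0.02. Pygb was at 8.10, 8.66 and 7.23 in PWS-IC del muscle, against 7.17, 8.30, 7.54 and 7.48 in wild-type muscle (0.38 ± 0.35), high where fat cell genes were high. The sum of 6 fat cell genes was 31675, 40663 and 15916 in PWS-IC del muscle, against 20698, 36622, 24021 and 21404 in wild-type muscle, and its part was not tested.

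Whether the genotype acted differently in the 2 tissues was tested as the brain difference minus the muscle difference over all 14 arrays. No member was called, 0 of 30 against 0.0803% of 14951 genes. At an unadjusted p under 0.05 there were 3, against 6.57% of all genes. They were Ldhb (0.91 ± 0.22, limma, adjusted p 0.321), Hk2 (0.58 ± 0.19, adjusted p 0.612) and Pgam2 (-0.39 ± 0.16, adjusted p 0.709). For Ldhb the value rests on muscle, since the gene was at 12.87, 12.95 and 12.86 in PWS-IC del brain, against 12.95, 12.96, 12.80 and 12.89 in wild-type brain. It was called without PWS-IC del muscle 1 (1.13, adjusted p 0.0292) and with array quality weights (1.00, adjusted p 0.0217). Over all 14951 genes the weights called 73, against 12 in the main fit. The Hk2 differences were 0.36 in brain and -0.22 in muscle, and neither was called.

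None of the other pathway genes was called between genotypes, 0 of 13 genes of glycolysis and glucose entry in each tissue, 0 of 14 glycogen genes in brain and 0 of 18 in muscle, and 0 of 10 regulators in brain and 0 of 12 in muscle. At an unadjusted p under 0.05 these lists held 1, 0 and 0 genes in brain, against 8.2% of all genes, and 1, 1 and 3 in muscle, against 11.9% of all genes. Slc16a7, the neuronal monocarboxylate carrier MCT2, was at 6.87, 6.84 and 7.15 in PWS-IC del brain, against 6.54, 6.76, 6.30 and 6.71 in wild-type brain (0.37 ± 0.14, limma, adjusted p 0.556). In muscle the smallest p among them was that of Tbc1d1, a brake on GLUT4 traffic, at 9.27, 9.15 and 9.07 in PWS-IC del muscle, against 9.54, 9.47, 9.52 and 9.60 in wild-type muscle (-0.37 ± 0.08, adjusted p 0.126). Prkaa2, the main catalytic subunit of AMP-activated protein kinase in muscle, was at 12.35, 12.30 and 12.30, against 12.88, 12.51, 12.68 and 12.71 (-0.38 ± 0.10, adjusted p 0.206). Both were below all wild-type arrays in each PWS-IC del array.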

How the data were processed

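RNA of the 14 samples was measured on Affymetrix Mouse Genome 430 2.0 arrays, 1 colour, 1 array a sample. The authors deposited 1 linear intensity per probe set, which the submitters' processing notes credit to PLIER in the Affymetrix Expression Console. How background was corrected and how arrays were scaled to each other is not given in the sources used here, nor are versions. Detection calls were not used here. The files held 0 missing values and 0 pairs of identical arrays.

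Probe sets were named through the annotation of the array platform, whose symbols may be outdated. Of 45101 probe sets, 34945 had 1 symbol and were used, 932 had several, 9160 were not listed and 64 were controls. Values were taken as log2(intensity + 16), which understates the change of dim genes. Whether the signal of the brightest genes understates their change was not tested. Genes under the 0.25 quantile of a tissue's mean values were not tested in it, and for the tissue difference and the interaction a gene had to pass in either tissue. Each comparison was fitted on all genes in limma 3.58.1 (lmFit, then eBayes, under R 4.3.3; 2-sided, Benjamini-Hochberg, threshold 0.05), genotype comparisons within a tissue and the tissue comparison within wild type. Errors of differences are standard errors.

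The text names all 34 members and, of 3 lists of other pathway genes, up to 4 with the smallest p in a comparison. Members and lists, markers included, were chosen with earlier results of these data known. The fits were tested on simulated data. Exact permutation tests were 2-sided on the size of the difference, where 0.0286 is the smallest p for 3 arrays against 4. The number of arrays limits the precision, and the p-values measure only the spread between these samples.

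Alternatives covered the pseudocount, scaling, the filter, the probe set of a gene, an intensity trend, array quality weights, the threshold, a joint fit, the replicate number as a block and leaving out arrays. The tissue difference in the PWS-IC del arrays was added after seeing the data.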

Additional observations from a re-analysis of the deposited data

Results flagged for a closer look

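In the 60 groups of 4 wild-type values that were tested (30 genes in 2 tissues), 3 held an array far from the others of its group, and chance alone gives about 1 in 20 groups. Aldoa was at 13.13 in wild-type brain 3, against 13.26 to 13.27 in the other 3 wild-type brains. Pgam2 was at 7.42 in wild-type brain 1, against 6.92 to 6.99 in the others. Slc16a3 was at 11.07 in wild-type muscle 3, against 10.48 to 10.54 in the others.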

How the results depend on the processing

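The number of arrays limits the precision, and for dim isoforms signal over background was not known. In brain, 0 members were called under all alternatives run. In muscle, 6 members were called with array quality weights (Hk2, Pgam1, Ldhb, Pygb, Phkg1 and Pfkfb3), where 1861 of 13644 genes were called, and 1, Ldhb, in the joint fit. Leaving out 1 array gave 0 in each muscle fit. The interaction called 1 member, Ldhb, with array quality weights and 0 to 1 when 1 array was left out, and the cause was not tested. For the tissue difference 28 to 30 members were called under every alternative. Over all genes, the muscle count of 16 was 46 after quantile normalization, 25 after median centring, 59 with an intensity trend, 29 with a pseudocount of 64, 39 in the joint fit, 84 at a threshold of 0.1, 8 with no filter on low values and 6 to 26 without 1 array. The tissue split of 8852 genes higher and 3355 lower in brain was 5231 and 6794 after quantile normalization and 5172 and 6556 after median centring. Deviations from the group mean in same-numbered samples of the 2 genotypes had r of -0.44 to -0.05 in brain and -0.03 to 0.38 in muscle. Between same-numbered brain and muscle samples r was -0.03 to 0.01 in wild type and 0.05 to 0.15 in PWS-IC del. These few values cannot show whether the numbers mark a pairing. The replicate block called 0 members in brain, 0 in muscle, 0 in the interaction and 29 in the tissue difference, and 3 genes in brain, against 9, and 2 in muscle, against 16, over all genes.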
